A study of Mus musculus with 24 samples.

Results

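Distal loci that carried peaks of ARID1B, FOXP1 and TCF7L2 together in mouse cortex at E18.5 (embryonic day), and not at E15.5, are described here. Overlapping peaks of the 3 factors on chromosomes 1 to 19 were merged at each stage, leaving out every peak that reached into the 2000 bp before any start of transcription (TSS). The loci were chosen by the measured presence of peaks: a locus was kept if it held a peak of each factor at E18.5 and shared no base with a locus that held all 3 at E15.5. Of 61492 distal loci at E18.5, 6214 held all 3 factors (10.1%), and 1505 of these (24.2%) met the rule. The other 4709 overlapped a locus with all 3 factors at E15.5, and 6618 of the 11326 such loci at E15.5 had no counterpart with 3 factors at E18.5. Since presence of peaks at the 2 stages set the membership, counts of missing factors at E15.5 describe the loci and were not tested.

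The libraries came from cortex of wild type mice of a CD1 background, dissected at E15.5 and E18.5, with no genotype or treatment varied. Each factor and stage had 2 ChIP and 2 input libraries, 24 in all, and the 1 peak list per factor and stage used here was called by the authors on merged replicates. The labels name the third target TCF4, and the study's antibody list gives TCF7L2, the name used here. Whole cortex holds many cell types, so a peak can come from a part of the cells, and more bound cells cannot be told apart from more binding per cell.

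Distal peaks of transcription factors mark candidate enhancers, stretches of DNA that act on promoters over a distance. ARID1B is a subunit of the BAF complex, which moves nucleosomes with energy from ATP, FOXP1 is a forkhead factor of cortical neurons, and TCF7L2 is an HMG-box factor through which Wnt signaling and beta-catenin reach the genome. Between the 2 stages the mouse cortex passes from the making of upper-layer neurons to their migration, axon growth and the start of gliogenesis.

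The E18.5-only loci differed in which factors had already been present at E15.5, and example sequences are shown for that reason, for every state except the 10 loci with all 3 factors in separate E15.5 loci. They are the highest-ranked and not typical ones, and 7 of the 10 windows belong to the loci that E15.5 promoter peaks fill, described below. Each is the 200 bp around the strongest E18.5 summit of the highest-ranked loci of its state, read from the forward strand of GRCm38 (mm10), leaving out windows that overlap an exon. Capitals mark matches, on either strand, to any of the 17 motifs searched, whose letters are given with the motif results. The first pair lacked TCF7L2 at E15.5 while ARID1B and FOXP1 were present. The window near Cacng4, which encodes an auxiliary subunit of AMPA receptors, is chr11:107784287-107784486 in an intron, and the window whose nearest protein-coding gene is Cand1, a regulator of cullin ubiquitin ligases, is chr10:119055808-119056007 between genes.
Cacng4: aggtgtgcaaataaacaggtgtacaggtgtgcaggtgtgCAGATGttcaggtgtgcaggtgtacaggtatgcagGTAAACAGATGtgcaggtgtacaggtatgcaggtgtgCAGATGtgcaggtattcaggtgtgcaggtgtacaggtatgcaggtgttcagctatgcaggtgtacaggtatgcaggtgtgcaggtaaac
Cand1: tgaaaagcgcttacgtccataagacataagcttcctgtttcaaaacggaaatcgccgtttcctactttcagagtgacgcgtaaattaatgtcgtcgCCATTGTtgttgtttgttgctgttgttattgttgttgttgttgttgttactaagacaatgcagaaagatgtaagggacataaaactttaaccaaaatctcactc
The Cacng4 window is made of short tandem units, and held the bHLH E-box CATCTG at 3 places on the reverse strand, where it reads CAGATG. At the middle one it overlaps a forkhead match.

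The second pair lacked a distal FOXP1 peak at E15.5. The window upstream of Sos1, a Ras exchange factor, is chr17:80482861-80483060 between genes, and that of Lrrc4b, a synaptic adhesion protein, is chr7:44429263-44429462 in an intron.
Sos1: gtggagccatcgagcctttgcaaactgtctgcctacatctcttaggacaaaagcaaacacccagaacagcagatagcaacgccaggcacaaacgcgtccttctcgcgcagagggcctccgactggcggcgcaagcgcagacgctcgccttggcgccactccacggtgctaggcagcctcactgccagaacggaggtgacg
Lrrc4b: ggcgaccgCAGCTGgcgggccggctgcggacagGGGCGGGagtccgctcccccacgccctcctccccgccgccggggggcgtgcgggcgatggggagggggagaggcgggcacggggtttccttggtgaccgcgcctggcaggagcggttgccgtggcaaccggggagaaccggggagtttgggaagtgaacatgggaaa
Their GC contents were 61% and 74.5%, against 50% and 38% in the first pair, and both belong to the loci that promoter peaks fill, which had a higher median GC content than the others (65.8% and 48.5%). The next pair lacked a distal ARID1B peak at E15.5, and both windows lie in introns of Cwc22, a splicing factor gene, at chr2:77897336-77897535 and chr2:77940975-77941174.
Cwc22 window 1: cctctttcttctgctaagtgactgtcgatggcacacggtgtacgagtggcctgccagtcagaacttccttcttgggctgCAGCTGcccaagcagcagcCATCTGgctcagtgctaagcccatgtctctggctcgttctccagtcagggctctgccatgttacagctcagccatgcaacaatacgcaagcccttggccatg
Cwc22 window 2: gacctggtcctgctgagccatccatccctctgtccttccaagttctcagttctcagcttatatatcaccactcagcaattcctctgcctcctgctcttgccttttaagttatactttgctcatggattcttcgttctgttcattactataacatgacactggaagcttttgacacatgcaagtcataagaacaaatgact
The DNA around Cwc22 is known to vary in copy number among mouse strains, and the copy number in these animals was not analysed here. With 1 distal factor at E15.5, the windows are chr17:23924670-23924869, nearest to Dcpp3, a secreted salivary protein, and chr11:19925691-19925890 in an intron of Spred2, an inhibitor of the Ras pathway.
Dcpp3: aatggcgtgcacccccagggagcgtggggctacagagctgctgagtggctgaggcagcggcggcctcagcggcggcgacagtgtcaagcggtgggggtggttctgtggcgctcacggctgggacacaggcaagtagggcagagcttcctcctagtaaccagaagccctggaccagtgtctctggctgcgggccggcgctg
Spred2: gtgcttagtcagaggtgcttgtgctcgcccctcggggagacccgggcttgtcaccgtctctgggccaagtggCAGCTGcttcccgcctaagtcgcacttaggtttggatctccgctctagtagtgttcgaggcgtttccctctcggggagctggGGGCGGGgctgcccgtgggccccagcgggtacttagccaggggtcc
With no distal peak at E15.5, they are chr8:44938096-44938295 in an intron of Fat1, an atypical cadherin, and chr11:57651562-57651761 in an intron of Galnt10, an enzyme of O-linked glycosylation.
Fat1: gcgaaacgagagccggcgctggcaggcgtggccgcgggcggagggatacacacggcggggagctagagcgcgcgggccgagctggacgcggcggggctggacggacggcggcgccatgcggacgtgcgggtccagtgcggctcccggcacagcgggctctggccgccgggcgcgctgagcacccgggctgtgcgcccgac
Galnt10: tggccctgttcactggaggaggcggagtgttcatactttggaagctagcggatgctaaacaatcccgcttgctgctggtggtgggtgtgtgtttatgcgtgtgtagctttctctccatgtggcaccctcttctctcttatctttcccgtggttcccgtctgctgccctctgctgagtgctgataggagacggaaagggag
The Fat1 window had the highest GC content of these 10 windows, at 79%, and held none of the searched motifs. Every locus shown here without a distal FOXP1 or ARID1B peak at E15.5, other than Galnt10, had that factor at E15.5 in a peak that reached a promoter window.

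With the lists as deposited, TCF7L2 had no distal E15.5 peak at 81.1% of the E18.5-only loci, against 76.2% of all distal E18.5 loci. Cutting all lists to equal size gave 504 loci, of which 155 overlapped the 1505. Of these 504, TCF7L2 was missing at 48.2% and ARID1B at 43.8%. The share over all distal loci is not given for the cut lists, so the 76.2% does not apply to them. With distal E15.5 peaks alone, 1077 of the 1505 loci (71.6%, 95% Wilson interval 69.2 to 73.8%) had carried ARID1B and FOXP1, 180 ARID1B and TCF7L2, and 76 FOXP1 and TCF7L2. A further 106 had carried FOXP1 alone, 22 ARID1B alone and 18 TCF7L2 alone, 16 had none of the 3, and 10 had all 3 but in separate E15.5 loci. By factor, ARID1B had a distal E15.5 peak at 85.6% of the E18.5-only loci, FOXP1 at 84.3% and TCF7L2 at 18.9%. Over all distal E18.5 loci these shares were 68.6%, 54.8% and 23.8%. Wilson intervals here and below cover counting error only.

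The missing FOXP1 peaks were for the most part not missing from the lists. An E15.5 peak that reached into a promoter window had been left out by the rule, and such peaks lay over many of these loci. When E15.5 peaks at any position were counted, FOXP1 was present at 1497 of the 1505 loci (99.5%), ARID1B at 1341 (89.1%) and TCF7L2 at 310 (20.6%). Over all distal E18.5 loci the shares became 59.7% for FOXP1, 71.3% for ARID1B and 25.9% for TCF7L2. The 180 loci that seemed to lack FOXP1 alone fell to 3, and the 16 with no factor fell to 1. In all, 250 E18.5-only loci (16.6%, 14.8 to 18.6%) then had all 3 factors at E15.5, including the 10 with separate distal loci, and 1255 still lacked at least 1. Of these 1255, 1084 lacked TCF7L2 alone, 106 lacked ARID1B and TCF7L2, and 57 lacked ARID1B alone. The remaining 8 were the only ones without FOXP1: 4 with ARID1B, 3 with ARID1B and TCF7L2, and 1 with none. The 250 are called the loci filled by promoter peaks, although 10 of them held all 3 factors in separate distal E15.5 loci. The 250 and the 1255 loci are described separately where they differ.

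**Figure D1:**
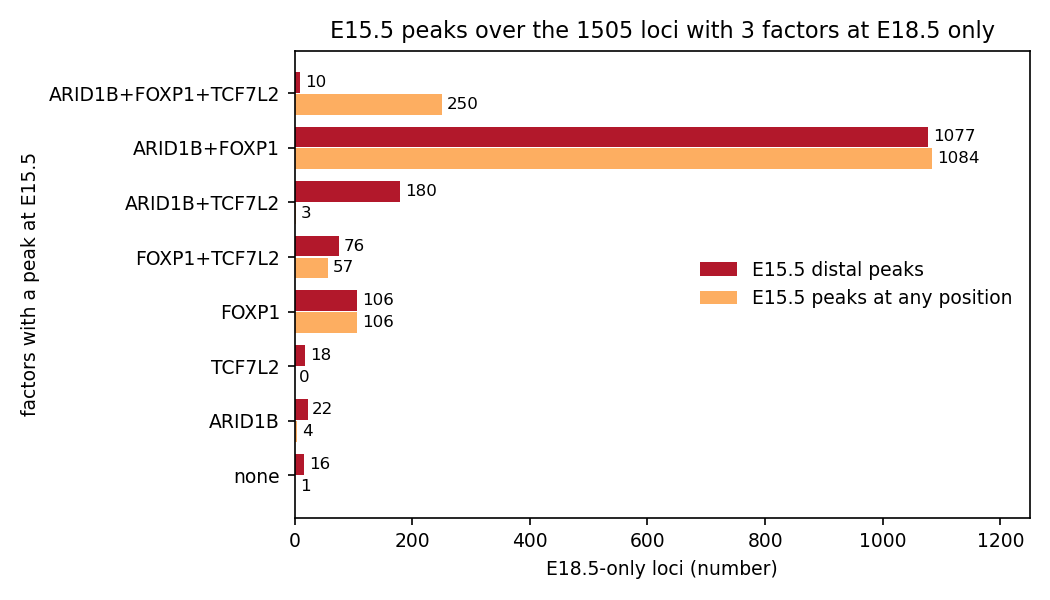
Number of E18.5-only loci (horizontal axis) for each set of factors with a peak at E15.5 (vertical axis), counting distal E15.5 peaks (dark bars) or E15.5 peaks at any position (light bars). Loci with ARID1B and FOXP1 make up 1077 or 1084 of the 1505, and the 180 loci with ARID1B and TCF7L2 fall to 3 while those with all 3 factors go from 10 to 250.

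At E18.5 the peaks of all 3 factors had lower median folds at these loci than at loci with 3 factors at both stages. Fold enrichment compares the reads piled up at a peak's summit with the background level, and each locus was given its strongest peak of each factor. The E18.5 fold of TCF7L2 at the 1505 loci ranged from 2.52 to 12.5 with a median of 3.39, against a median of 4.598 at the 4709 loci with 3 factors at both stages and 3.28 over all distal TCF7L2 peaks of that list. ARID1B had a median of 4.49 (2.66 to 22.4) against 6.31, and FOXP1 a median of 4.53 (3.35 to 39.9) against 4.97. In ranks by −log10 p among the distal peaks of the same E18.5 list, the median peak of an E18.5-only locus stood at the percentile 63.3 for ARID1B, 50.2 for FOXP1 and 59.2 for TCF7L2. The corresponding percentiles at loci with 3 factors at both stages were 84.8, 60.8 and 87.7. The merged lists carry no spread between replicates against which to test these differences.

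Within the E18.5-only loci, the groups formed by the E15.5 peaks differed in height. Where TCF7L2 alone was missing at E15.5, the median ARID1B fold was 4.55 in the E15.5 list and 4.91 in the E18.5 list. FOXP1 had 5.32 and 4.53, and TCF7L2 had 3.28 in the later list, with no locus above 5.14. Where FOXP1 was the only factor at E15.5, ARID1B reached a median of 3.37 at E18.5 (2.81 to 4.77) and TCF7L2 3.17 (2.52 to 4.27). Where ARID1B alone was missing, its E18.5 median was 3.51 (2.95 to 4.63), and TCF7L2 had 3.68 at E15.5 and 3.61 at E18.5. In the 250 loci with all 3 factors at E15.5 in peaks at any position, the median TCF7L2 fold was 4.83 in the earlier and 4.82 in the later list. FOXP1 had 8.35 and 4.68 there. The FOXP1 list at E18.5 was the least deep of the 6, with about 26.3 M reads in the smaller library against 57.3 to 80.7 M for the others, and FOXP1 also had the lower median at E18.5 at loci with 3 factors at both stages (6.71 and 4.97). The part of depth in these stage differences was not tested.

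**Figure D2:**
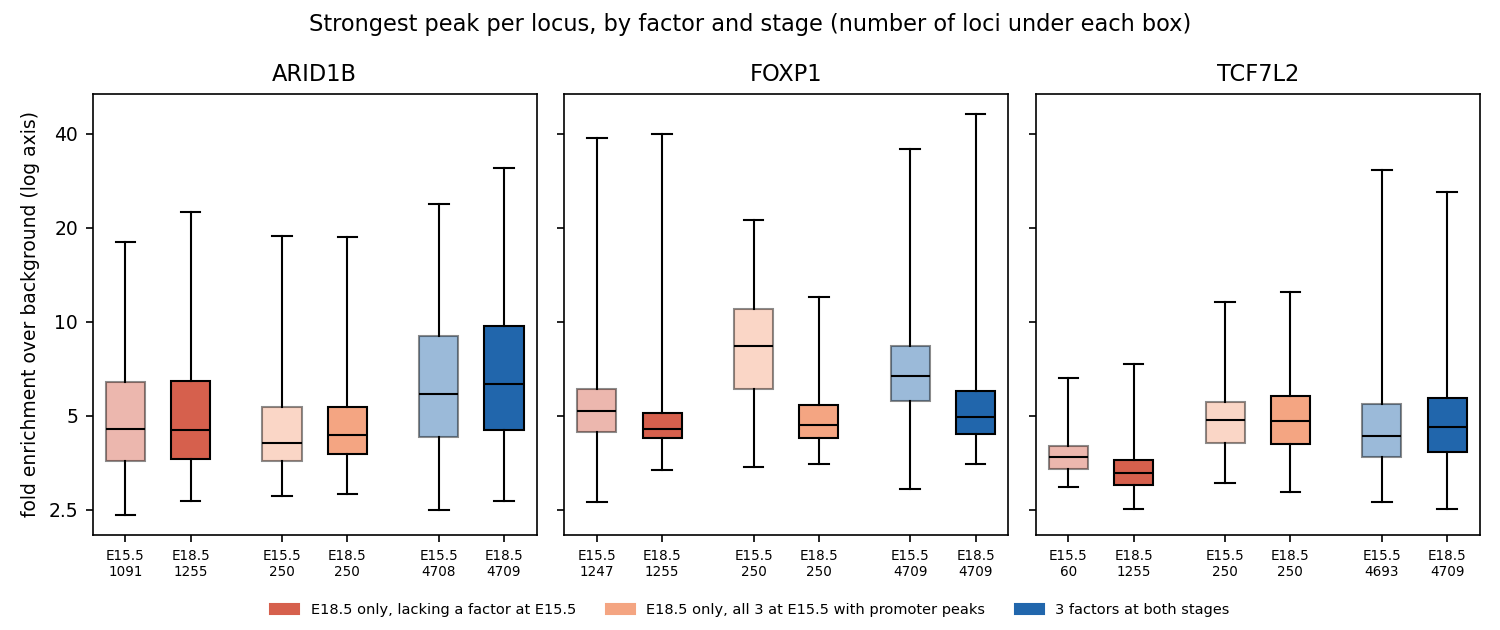
Fold enrichment over background (log axis) of the strongest peak per locus for ARID1B, FOXP1 and TCF7L2 at E15.5 (pale) and E18.5 (full color), with boxes from the first to the third quartile, a line at the median, whiskers to the lowest and highest locus, and the number of loci with a peak below each box. The TCF7L2 box of the E18.5-only loci that lacked a factor at E15.5 lies lowest, with an E18.5 median of 3.28 against 4.82 and 4.598 in the other groups.

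The E18.5 heights of newly present factors can be set beside the folds in the E15.5 lists, which differ in depth (60.1 M reads for TCF7L2 at E15.5 and 76.1 M at E18.5). Of the 1195 loci without TCF7L2 at E15.5, 46 had an E18.5 fold under the lowest of the E15.5 list, 2.64, and 663 under the first quartile of its distal peaks, 3.37. Under the median of those peaks, 3.79, lay 1009 (84.4%). Whether detection at E15.5 has a part in the missing peaks was not tested. For ARID1B, 121 of 164 loci without it at E15.5 lay under its E15.5 median of 3.66, and none lay under the lowest fold of that list. Over all distal ARID1B peaks of the E18.5 list the median was 4.07. The nearest E15.5 TCF7L2 peak was at a median distance of 20.95 kb from the 1195 loci, and within 1 kb of 58 of them. For the 164 loci without ARID1B the median distance to its nearest E15.5 peak was 6.88 kb.

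At the edge of the rule, the E18.5-only locus closest to a 3-factor E15.5 locus was separated from it by 23 bases, and the next by 64. The least overlap that made a locus count as present at both stages was 5 bases, and the next 191. The weakest peaks admitted at E18.5 had a −log10 p of 4.63 for ARID1B, 4.41 for FOXP1 and 4.83 for TCF7L2. Just outside the rule at E18.5 were 12990 distal loci that lacked FOXP1 alone, 1388 that lacked TCF7L2 alone and 830 that lacked ARID1B alone, for which the lists give no value of the missing factor.

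Membership depended on the height required of a peak. With −log10 p of at least 15 in every list the rule gave 115 loci, of which 19 overlapped the 1505. With a fold of at least 4 it gave 805, of which 191 did. When every list was cut to its 10939 strongest distal peaks, the number in the shortest, it gave 504 loci, 155 of them among the 1505. In that setting 48.2% lacked TCF7L2 at E15.5, 43.8% ARID1B and 25% FOXP1, against 81.1%, 14.4% and 15.7% as defined. The lists as deposited held, in order of stage, 33042 and 53219 peaks of TCF7L2, 64080 and 24890 of FOXP1, and 71442 and 68472 of ARID1B.

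**Figure D3:**
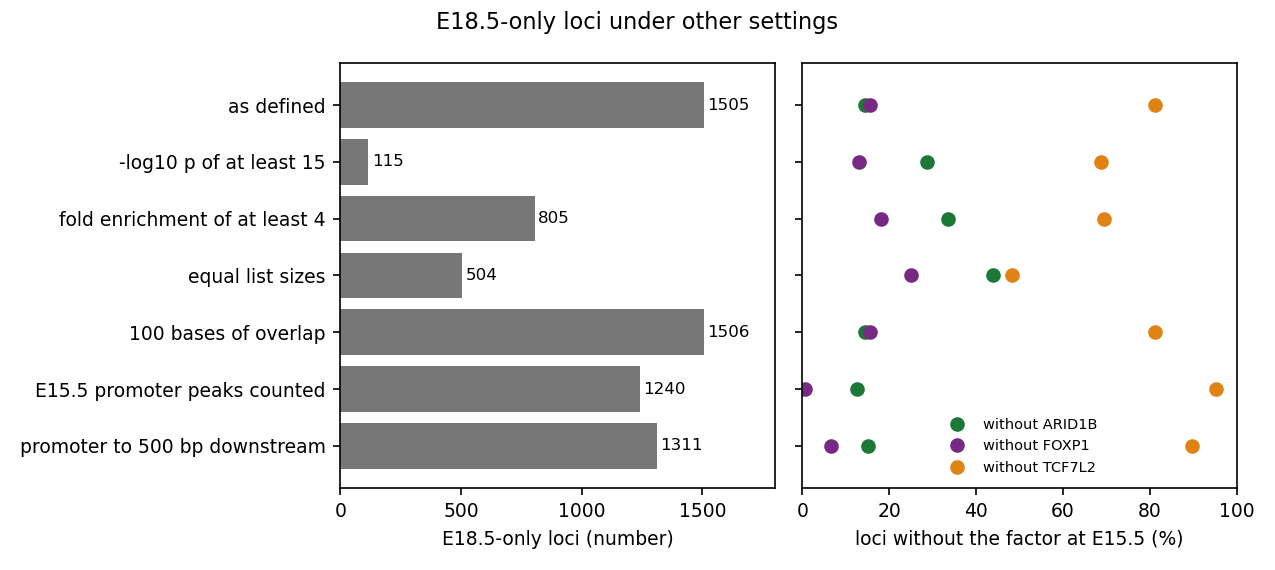
Number of E18.5-only loci (left) and the percentage without a distal peak of each factor at E15.5 (right) under the rule as defined and 6 other settings. Stricter peak heights and equal lists lower the number from 1505 to between 115 and 805, and with equal lists ARID1B and TCF7L2 are missing at 43.8% and 48.2%.

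Merging overlapping peaks brings the summits of a locus close together by construction, so their distances are a description. The E18.5 summits of ARID1B and FOXP1 lay a median of 79 bp apart, those of FOXP1 and TCF7L2 84 bp, and those of ARID1B and TCF7L2 92 bp, against 75 to 77 bp at loci with 3 factors at both stages. All 3 summits fell within 100 bp at 495 loci (32.9%), against 38.2% of the loci with 3 factors at both stages. Between stages, the FOXP1 summit at E15.5 lay a median of 65 bp from that at E18.5 (1497 loci, 66.4% within 100 bp), the ARID1B summit 59 bp (1341 loci, 66.5%) and the TCF7L2 summit 89.5 bp (310 loci, 56.5%). The farthest were 5241, 7152 and 2114 bp apart. The loci had a median length of 646 bp (266 to 4638 bp), against 965 bp at loci with 3 factors at both stages, and covered 1.10 Mb.

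The 250 loci lie near a TSS by construction, since all but the 10 with separate distal loci of the 3 factors were completed by an E15.5 peak that reached a promoter window, so their distances are a description. The middle of the 1255 loci that lacked a factor was a median of 13.5 kb from the nearest TSS of any transcript, close to the 12.5 kb of loci with 3 factors at both stages, 13.2 kb of those at E15.5 only and 13.6 kb of all distal E18.5 loci. For the 250 loci filled by promoter peaks the median was 0.811 kb, and 165 of them (66.0%) lay within 1 kb. By protein-coding TSSs alone, the 1255 loci were at a median of 39.3 kb, and 42.6% lay more than 50 kb away. Of the 1255, 597 had their middle in an intron (47.6%), 577 between genes (46.0%), 28 in a coding exon, 30 in an untranslated region and 23 in a non-coding exon. Of the 250, 182 lay in an intron (72.8%), and only 16 between genes.

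**Figure D4:**
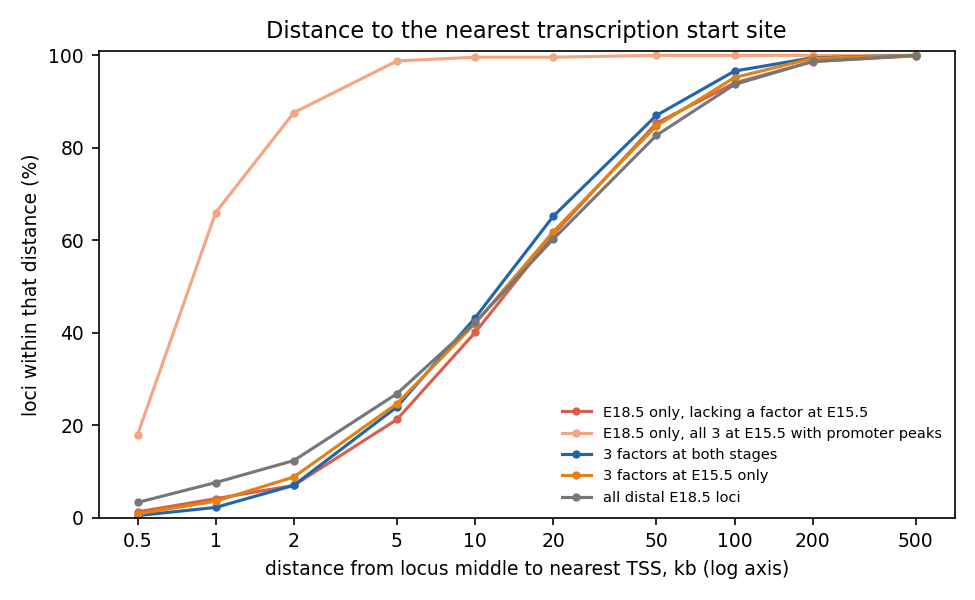
Cumulative percentage of loci (vertical axis) within a given distance of the nearest TSS in kb (log axis) for 5 groups of distal loci. The 250 E18.5-only loci that promoter peaks fill rise first, by construction for all but 10 of them, with 66.0% within 1 kb. The curve of the 1255 others lies near that of all distal E18.5 loci.

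The strongest E18.5-only loci were among those filled by promoter peaks. Loci were ranked by the lowest, over the 3 factors, of the percentile of the peak within its own E18.5 list. All of the 12 highest had all 3 factors at E15.5 when promoter peaks were counted, as did 40 of the highest 50 and 53 of the highest 100. Among the 12, the Gtf2a1 and Sox12 loci held all 3 in separate distal E15.5 loci. The first, chr17:80482616-80483421 upstream of Sos1, had E18.5 folds of 8.70 for ARID1B, 12.04 for FOXP1 and 8.54 for TCF7L2. Its E15.5 folds were 8.37, 15.7 and 8.69, and FOXP1 was missing by the rule only because its E15.5 peak reached the promoter window. The second, chr17:78735882-78737133 downstream of the TSS of Strn, a scaffold of protein phosphatase 2A, had 7.29, 9.39 and 9.52 at E18.5 and 6.86, 13.8 and 9.11 at E15.5. The others of the 12 lay nearest to Gtf2a1, a subunit of the general factor TFIIA, Tmco5, Cwc22, Dcpp3, Sox12, a SoxC transcription factor, A930004D18Rik, Lrrc4b, Cstad, Rcc2, a regulator of chromosome segregation, and Cryba4, a lens crystallin. Their TCF7L2 folds were 5.25 to 10.9 at E18.5 and 5.04 to 10.2 at E15.5, so that for none of the 12 did the lists show an arrival of TCF7L2.

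Where TCF7L2 was new at E18.5, the first 3 loci lay nearest to Cacng4, Cand1 and Cap1, a regulator of actin. The Cacng4 locus, chr11:107783860-107784692, had the highest FOXP1 fold of all E18.5-only loci, 39.9 at E18.5 and 38.7 at E15.5. There TCF7L2 had a fold of 4.38 at E18.5 with no peak at E15.5, and ARID1B 6.31 at E18.5 and 5.08 at E15.5. At the Cand1 locus, chr10:119055172-119056094, TCF7L2 had 4.71, FOXP1 had 5.44 and then 8.21, and ARID1B had 4.81 and 5.05. At the Cap1 locus, chr4:122909490-122910126, TCF7L2 had 3.94, ARID1B 7.04 and 7.43, and FOXP1 5.70 and 6.44. With FOXP1 as the only E15.5 factor in either count, the highest-ranked was chr11:80669945-80670835 in an intron of Myo1d, an unconventional myosin. There FOXP1 had 8.10 in the earlier and 6.44 in the later list, and ARID1B and TCF7L2 appeared at E18.5 with 4.21 and 3.72. Among the 16 loci with no distal E15.5 peak, the Fat1 locus had all 3 factors through promoter peaks (5.70, 9.37 and 8.28), the Mapkapk3 locus, by the gene of a kinase of the p38 pathway, ARID1B and FOXP1 (3.30 and 4.18), and the Galnt10 locus FOXP1 (3.54).

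The 1505 loci were nearest to 1307 protein-coding genes, 6.29% of the 20780 on the autosomes, and 1147 of these genes had a single locus. Mpped1, a metallophosphoesterase gene of the developing brain, had the most with 5, of the 7 distal loci with 3 factors at E18.5 that were nearest to it. At 4 of the 5, TCF7L2 was the factor missing at E15.5, with E18.5 folds of 2.85 to 3.39, and the fifth, chr15:83780043-83782697, was filled by promoter peaks. The genes with 4 loci were Cwc22, Cstad, Spata19, Dlg2, Auts2, Pik3c3 and Gpr26. Dlg2, which encodes the postsynaptic scaffold PSD-93, had 4 loci in introns of its 1973 kb, all with ARID1B and FOXP1 at E15.5 and TCF7L2 new at E18.5, at folds of 2.63, 3.17, 3.50 and 3.39. ARID1B reached 9.40 and 8.28 at the first and second of them, and 4.91 and 3.65 at the others. Auts2, a gene of neurodevelopmental disorders, had TCF7L2 new at 3 of its 4 loci (3.61, 3.50 and 3.07), and the fourth, chr5:132027751-132028595, was filled by promoter peaks. Near Spata19 all 4 loci lacked TCF7L2 alone at E15.5, as did all 4 near Pik3c3, the lipid kinase of autophagy, and 3 of 4 near Gpr26, an orphan receptor. Zfp536, a zinc finger gene of neural differentiation, and Ephb2, an ephrin receptor, had 3 loci each and came first by summed rank score among the genes with 3. TCF7L2 alone was missing at all 3 of Zfp536 and at 2 of Ephb2.

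By gene group, the share of genes with an E18.5-only locus is read against the 6.29% of all autosomal protein-coding genes, and the share of distal E18.5 loci that were E18.5-only against 2.45% over all genes. Of 26 autosomal synaptic adhesion and scaffold genes, 15 had at least 1 (57.7%), with 22 loci, 20 of which lacked a factor at E15.5 in all peaks. Examples were Dlg2 with 4 loci, Cntnap2 and Dlgap1 with 2 each, and Shank1, a postsynaptic scaffold, Snap25, a SNARE protein of vesicle release, Cntn5 and Lrrtm4 with 1 each. Of 30 axon guidance genes, 16 had one (53.3%), with 21 loci, among them 3 at Ephb2 and 2 each at Ephb1, Nrp1 and Slit3. These genes are long, with medians of 349 and 299 kb against 17.6 kb for all autosomal protein-coding genes, and the part of length in the gene counts was not tested. Counted per locus, 4.10% of the 536 distal E18.5 loci nearest to synaptic genes and 2.30% of the 912 nearest to guidance genes were E18.5-only loci, so that axon guidance genes lay near the share over all genes. Of the 33 ion channel and receptor genes, also long with a median of 409 kb, 4 had a locus (12.1%), for example Gria2, an AMPA receptor subunit, and Scn8a, a sodium channel, and the share per distal locus was 1.18%.

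In progenitors, none of the 12 genes of intermediate progenitors and neurogenic bHLH factors had an E18.5-only locus, of 143 distal E18.5 loci nearest to them, and 8 had a distal locus with 3 factors at E18.5. Of 15 radial glia genes, 2 had one (13.3%, Sox2 with 2 loci and Sox9 with 1), and 11 had a 3-factor locus. In neurons, 4 of 15 upper-layer genes had an E18.5-only locus (Lmo4, Mef2c, Ptprk and Unc5d), and 12 had a 3-factor locus. Of 14 deep-layer and subplate genes, 4 had an E18.5-only locus (Nr4a2, Sox5, Tshz2 and Zfpm2), and 11 had a 3-factor locus. Of 15 astrocyte lineage genes, 8 had a 3-factor locus and 4 an E18.5-only locus. These 4 were Aqp4, the water channel of astrocyte endfeet, Id4, and the NFI factors Nfia (2 loci) and Nfib. Genes with a 3-factor locus but no E18.5-only locus were thus not particular to progenitors. Among genes of cell types less common in cortex, 1 of 16 interneuron genes (Erbb4) had an E18.5-only locus. None of 14 endothelial and pericyte genes or 10 microglial genes did. The 46 and 9 distal E18.5 loci nearest to them were too few to read a difference from 2.45%. The shares of distal loci were 1.01% for radial glia (3 of 297), 1.16% for upper-layer (5 of 430), 1.51% for deep-layer (5 of 332) and 1.60% for astrocyte genes (5 of 312), counts too small to read a direction from. Of the activity-regulated genes, 3 of 22 had a locus (13.6%), at Fos, Dusp1 and Nr4a2, with 4 of 142 distal loci (2.82%), near the share over all genes. Of the 32 Wnt pathway genes, 4 had one (12.5%), at Ctnnb1, the gene of beta-catenin, Fzd1, Wnt5a and Dkk3, and the share per distal locus was 1.18%.

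The BAF complex to which ARID1B belongs had 8 of its 26 genes near an E18.5-only locus (30.8%), with 10 loci, or 4.26% of the 235 distal loci nearest to these genes, but 5 of the 10 had all 3 factors at E15.5 when promoter peaks were counted. These 5 were at Arid1a, Dpf1, Dpf3, Smarcc2 and Smarca2. At Arid1a, the paralog of Arid1b, the locus chr4:133751738-133753201 had TCF7L2 folds of 11.0 (E15.5) and 6.13 (E18.5). TCF7L2 was new at E18.5 at chr17:4778169-4778589, nearest to Arid1b itself at 217 kb upstream of its closest protein-coding TSS, with a fold of 3.94. There ARID1B had 4.55 (E15.5) and 4.49 (E18.5), and FOXP1 5.95 and 5.41. TCF7L2 was also new at second loci of Smarcc2 (4.49) and Smarca2 (4.49), at Smarcd3 (4.38) and at Bcl7a (3.39). In the family of the 3 factors themselves only Arid1a and Arid1b, of 9 genes, had a locus, so that no E18.5-only locus was nearest to Foxp1 or Tcf7l2. Of the 102 genes associated with autism spectrum disorder (ASD) that the study names, 18 had an E18.5-only locus (17.6%), with 21 loci, 15 of which lacked a factor at E15.5 in all peaks. Examples were Dnmt3a, a DNA methyltransferase, with 2 loci, and Crebbp, a histone acetyltransferase, Kmt2e, Med13l, Nsd1, Satb1 and Tcf4 with 1 each. ASD-associated genes are also long, with a median of 94.7 kb against 17.6 kb for all autosomal protein-coding genes. A distal locus with 3 factors at E18.5 was nearest to 54 of the 102, against 3743 of all 20780. The part of either in the 17.6% was not tested. Of the 1219 distal loci nearest to ASD-associated genes, 21 (1.72%) were E18.5-only, against 2.45% over all genes. No interval was computed for this share, so no direction is read from it.

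Sequence composition is given for the same groups, all but 10 of the 250 being near promoters by construction. The strongest summit is that of the peak with the highest −log10 p in the locus. In 200 bp windows around the strongest summit, the median GC content of the 1255 loci was 48.5%, equal to the 48.5% of all distal E18.5 loci and below the 52.5% of loci with 3 factors at both stages. The 250 loci filled by promoter peaks had 65.8%, and 149 of them (59.6%) had at least 50% GC with a CpG ratio of 0.6 or more, as CpG islands do, against 66 of the 1255 (5.26%). More than 50% of the window was repeat-masked in 21 of the 1255 loci (1.67%), against 2.72% of all distal loci.

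The 17 motifs were searched on both strands, namely the E-boxes CATCTG and CAGCTG, forkhead TGTTTAC, TCF/LEF ATCAAAG, T-box AGGTGTGA, AP-1 TGACTCA or TGAGTCA, RFX GTTGCCAT, NFI TTGGCA, POU ATGCAAAT, homeodomain TAATTA, SOX ACAATGG, KLF/SP GGGCGGG, ETS CCGGAAG, EGR GTGGGCG, CRE TGACGTCA, and the MEF2 and CTCF consensus. Matches may overlap, as the forkhead and E-box matches near Cacng4 do, and each motif counts by itself. A match is a description of the letters and not a site of binding. CATCTG, the E-box of neurogenic bHLH factors, was the most common, in 379 of the 1255 loci (30.2%, 27.7 to 32.8%), near the 30.3% of all distal E18.5 loci. It was in 32.6% of the loci where TCF7L2 alone was missing and in 14.2% (8.77 to 22.0%) of the 106 where FOXP1 was the only E15.5 factor. The motifs of the immunoprecipitated families were rare. Forkhead TGTTTAC was in 3.75% of the 1255 loci and 3.64% of all distal loci, and TCF/LEF ATCAAAG in 1.67% (1.10 to 2.54%) and 3.09%.

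CTCF, the zinc finger protein of chromatin loop anchors, had the motif with the highest ratio, of the 17, of its share at the 1255 loci to that over all distal E18.5 loci. Its consensus was in 74 of the 1255 loci (5.90%, 4.72 to 7.34%), in 2.57% (2.15 to 3.06%) of loci with 3 factors at both stages, in 1.56% (1.29 to 1.88%) of those at E15.5 only and in 1.28% (1.197 to 1.38%) of all distal E18.5 loci. The share was 4.89% where TCF7L2 alone was missing at E15.5, 13.2% (8.03 to 20.96%) of the 106 loci with FOXP1 alone, and 12.3% (6.08 to 23.2%) of the 57 where ARID1B alone was missing. Over all 1505 loci, the 77 with the motif had a median ARID1B fold of 3.79 at E18.5, against 4.49 at the 1428 without it. Their FOXP1 fold was 4.82 against 4.53, and that of TCF7L2 3.39 in both. By −log10 p, the strongest of the 3 peaks was that of ARID1B at 26 of the 77, FOXP1 at 25 and TCF7L2 at 26. At the 1428 the counts were 880, 158 and 390. The E18.5 lists differ in depth, with about 26.3 M reads for FOXP1, 57.3 M for ARID1B and 76.1 M for TCF7L2. The part of depth in these counts was not tested. As examples, chosen after their values were seen, the 2 highest-ranked loci with a CTCF match are shown, both with TCF7L2 alone missing at E15.5, at chr2:19276325-19276524 in an intron of Armc3 and chr2:172215854-172216053 between genes and nearest to Mc3r, a melanocortin receptor.
Armc3: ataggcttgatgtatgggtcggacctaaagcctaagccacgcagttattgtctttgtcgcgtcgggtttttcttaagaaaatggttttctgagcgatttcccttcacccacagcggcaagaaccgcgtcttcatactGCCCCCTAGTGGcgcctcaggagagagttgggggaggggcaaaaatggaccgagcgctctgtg
Mc3r: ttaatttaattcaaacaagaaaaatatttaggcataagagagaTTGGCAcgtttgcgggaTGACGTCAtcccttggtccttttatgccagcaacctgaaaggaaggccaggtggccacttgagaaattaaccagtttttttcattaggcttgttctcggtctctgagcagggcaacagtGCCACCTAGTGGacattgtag
The Armc3 locus had E18.5 folds of 4.77 for ARID1B, 8.36 for FOXP1 and 3.83 for TCF7L2, and the Mc3r locus had 4.77, 5.85 and 3.61.

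Shares of other motifs are given for both groups. KLF/SP GGGCGGG was in 20.8% (16.2 to 26.3%) of the 250 and 3.90% (2.97 to 5.12%) of the 1255, and CATCTG in 15.2% and 30.2%. NFI TTGGCA was in 21.9% of the 1255 loci, near the 21.5% of all distal loci, and RFX GTTGCCAT in 2.55% (1.81 to 3.58%), against 2.25% (1.86 to 2.72%) of loci with 3 factors at both stages and 1.38% (1.29 to 1.47%) of all distal loci. Homeodomain TAATTA was in 5.98% (4.79 to 7.43%) of the 1255 loci, below the 9.10% of all distal loci and the 11.0% of loci with 3 factors at E15.5 only, and close to the 6.18% of loci with 3 factors at both stages. The AP-1 motif of activity-dependent enhancers was in 3.51%, against 3.24% of all distal loci. None of the 17 motifs was found in 372 of the 1255 windows (29.6%), against 30.5% of all distal windows.

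**Figure D5:**
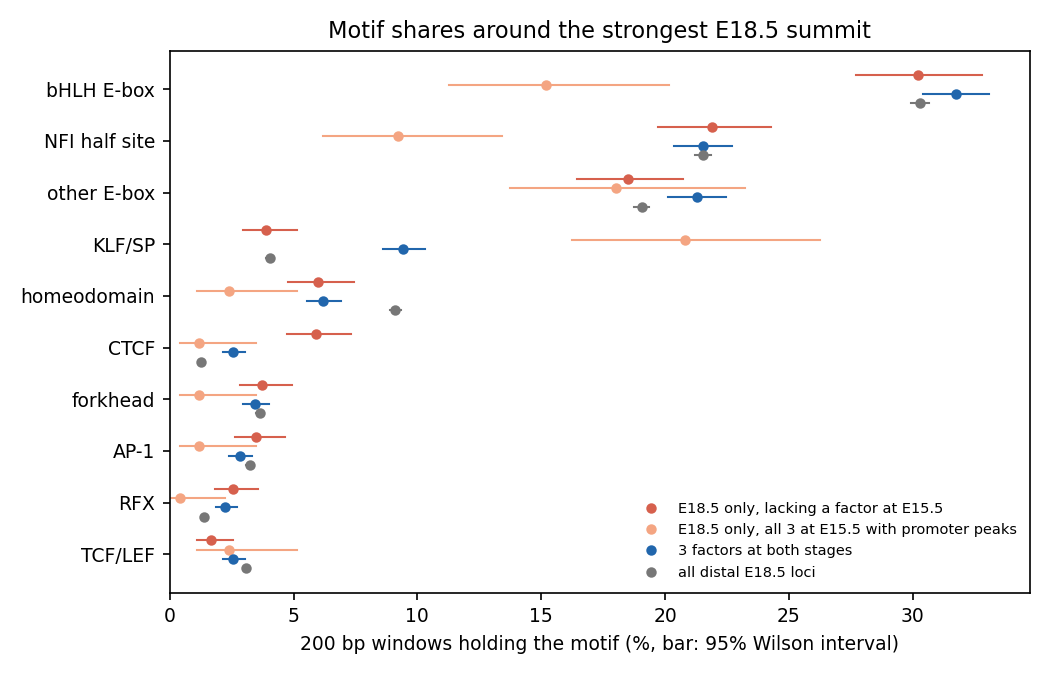
Percentage of 200 bp windows (horizontal axis) that hold each of 10 motifs (vertical axis) in 4 groups of loci, with points for the share and bars for the 95% Wilson interval. CTCF lies at 5.90% in the E18.5-only loci that lacked a factor at E15.5 against 1.28% of all distal E18.5 loci, and KLF/SP at 20.8% in those that promoter peaks fill.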

How the data were processed

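ChIP-seq peaks from the cortex of wild type mice at both stages were analysed for ARID1B, FOXP1 and TCF7L2, 1 list per factor and stage. Per the study's methods and processing notes, the authors aligned reads with BWA 0.7.15 to mm10 (GRCm38), called peaks per replicate to check their reproducibility, then merged the reads of replicates and called the narrow peaks used here with MACS2 2.2.7 at q of 0.01 against input, with a constant background and reads extended to 200 bp. The deposited lists hold a fold enrichment (a ratio with a pseudocount added to both parts), −log10 p, −log10 q and an integer score, which in the authors' files follows q. The score and q were not used. Peaks per replicate were not analysed here, and the merged lists carry no replicate spread, so no test was made, and intervals (95%, Wilson) cover counting error only.

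TSSs, exons and genes came from GENCODE vM21 and sequence from RefSeq's GRCm38.p6, the build of the files. No peak ended past its chromosome. Coordinates count from 1. Overlap meant at least 1 base. Read depth of the smaller library was recovered from the pairs of fold and −log10 p under the Poisson model, which explained all pairs within 0.01. Scripts used Python 3.11.15, NumPy 2.4.6, SciPy 1.17.1, pysam 0.24.0 and matplotlib 3.10.9, and were tested on simulated peaks. The loci, the gene lists and the motifs were chosen with earlier results of these data known. Loci named are the 12 of highest rank, the 3 highest of each E15.5 state, those of the 10 genes with most loci and those of BAF and ARID1B, FOXP1 and TCF7L2 family genes. Sequences are the first 2 of each state, leaving out chromosome 18 and, as an exception added later, windows over exons. Nearest genes are by distance alone. Some results on withheld genes are not reported here. Alternatives are given in the closing section.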

Additional observations from a re-analysis of the deposited data

Results flagged for a closer look

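Chromosome X was left out of the comparisons. By the same rule it held 5 distal loci with all 3 factors at E18.5 only, of 35 with 3 factors at E18.5 and 511 distal loci. They were flagged as data not used above. On the autosomes 1505 of 6214 loci with 3 factors at E18.5 (24.2%) met the rule, and 5 loci are too few to compare. At E15.5, 4 of the 5 had ARID1B and FOXP1 peaks and 1 had FOXP1 alone.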

How the results depend on the processing

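No paired analysis was possible because the peak lists used here were called on merged replicates, and for the same reason no replicate was left out. Peaks per replicate were not analysed here. The number of loci was 115 with −log10 p of at least 15, 805 with fold of at least 4 and 504 with equal lists. It was 1506, 1240 and 1311 with 100 bases of overlap, with E15.5 promoter peaks counted and with promoters to 500 bp downstream. The percentages without ARID1B, FOXP1 and TCF7L2 at E15.5 were 28.7, 13.04 and 68.7 with −log10 p of at least 15, then 33.5, 18.01 and 69.4 with fold of at least 4, and 43.8, 25 and 48.2 with equal lists. They were 12.6, 0.645 and 95.2 with promoter peaks counted, and 6.56 for FOXP1 and 89.7 for TCF7L2 with promoters to 500 bp downstream. Shares over all distal E18.5 loci are not given for these settings, and the cause of the shifts was not tested.

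The median GC content, 50% over the 1505 loci, was 48.3% in 400 bp windows and 48.5% without the 250 loci that promoter peaks fill, an alternative chosen after seeing the data. The median TSS distance, 10.1 kb, was 29.0 kb for protein-coding transcripts and 13.5 kb without those 250. With folds of at least 4 in every list, the median E18.5 folds were 5.47 for ARID1B, 4.97 for FOXP1 and 4.49 for TCF7L2, and TCF7L2 had 3.28 where no E15.5 promoter peak lay over the locus. In 400 bp windows CATCTG was in 37.9% of the 1505 loci, TGTTTAC in 6.18% and ATCAAAG in 4.19%, against 27.7%, 3.32% and 1.79%. CATCTG was in 24.7% around the TCF7L2 summit and in 30.2% without the 250. CTCF was in 7.38% of the wider windows, against 1.91% of all distal E18.5 loci. Peaks of low fold rest on few reads, and the absence of a peak at E15.5 is not the absence of binding.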

Other observations

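The E18.5-only loci were found on every autosome, from 27 on chromosome 19 to 144 on chromosome 2. As a share of the distal loci with 3 factors at E18.5 they ranged from 19.01% on chromosome 19 to 27.4% on chromosome 3. They were scattered: 191 of the 1505 (12.7%) had another within 50 kb, and the median gap to the nearest was 357 kb.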
